A study of Mus musculus with 2 samples.

Results

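The genes examined here are those of DNA replication and S phase, 48 genes that open replication origins, copy the DNA, supply its nucleotides, rebuild chromatin behind the fork and start S phase. They were taken from a list of symbols, and each was read from the array row annotated with that symbol alone, using the row with the highest mean of both arrays where a gene had several. All 48 were found among the 19863 genes named in the table. Bone marrow of mice aged 8 weeks had been grown into macrophages with medium conditioned by L929 cells, a fibroblast line that secretes the macrophage growth factor M-CSF, in both groups. Each group is 1 labelled sample with 1 column of values, called an array here although a column could be a mean of several hybridisations. There were 2 arrays, 1 of macrophages labelled beta-catenin deficient and 1 of control macrophages, both Affymetrix 1.0 ST arrays hybridised with biotin-labelled total RNA. The labels used here name no allele, Cre driver or mouse strain and do not say how many animals stand behind a culture. With 1 array per group no difference can be set against a spread between cultures, so no test was made, and higher and lower describe these arrays only.

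Before S phase, the origin recognition complex, Cdc6 and Cdt1 load the MCM2-7 ring onto DNA as an inactive helicase, a step called licensing, and geminin (Gmnn) blocks Cdt1 so that no origin is licensed again in the same cycle. At the start of S phase the ring becomes active when Cdc45 and the GINS complex join it, and polymerases alpha, epsilon and delta then copy the strands with the clamp PCNA. Most of these genes are transcribed under E2F factors, which the retinoblastoma protein holds back until cyclin-dependent kinases, among them that of cyclin E, release them. Bone marrow precursors divide while they become macrophages under M-CSF, and these genes are little used once macrophages have left the cell cycle.

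Before any direction is read from the labels, the targeted gene was looked at. Ctnnb1, the gene of beta-catenin, had a level of 11.44 on the array labelled deficient, against 11.29 on the control array. It was thus not lower on the array labelled deficient, and where its probes lie relative to the deletion is not known here. Each direction below rests on the label. Levels are log2 values from RMA, a method that corrects background, normalizes probes and summarises them per gene, so a difference of -1 means that the level was 2-fold lower. Values ran between 2.12 and 13.98 on the array labelled deficient and between 2.70 and 14.11 on the control array, with medians of 7.24 and 7.31 in the same order, and levels of different genes are not compared because each rests on its own probes.

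Replication genes were lower on the array labelled deficient in each of 5 role groups by the median, while single members went both ways, with differences between -1.30 and 0.44. Of the 48 members, 47 reached a brightness of 7.28 on at least 1 array, and geminin did not. This floor is the middle value over the rows of both arrays together. Their median difference was -0.43, which puts the level at 0.742 of control, while the median over all 10657 genes that reach the same floor was -0.08. In all, 41 of the 47 had a difference below 0, where 58.9% of all genes did, and 29 lay at or below -0.32, the 25th percentile of all differences. At least 1.5-fold lower were 9 of the 47, where 8.81% of all genes were, and at least 1.5-fold higher were 0, where 7.54% of all genes were. Only Esco2 and E2f2 were at least 2-fold lower, a size passed downward by 1.59% of all genes, and 0 were at least 2-fold higher, where 2.96% of all genes were. The members and the lists were chosen with earlier results of these data known, so the counts describe the members and test nothing.

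**Figure D1:**
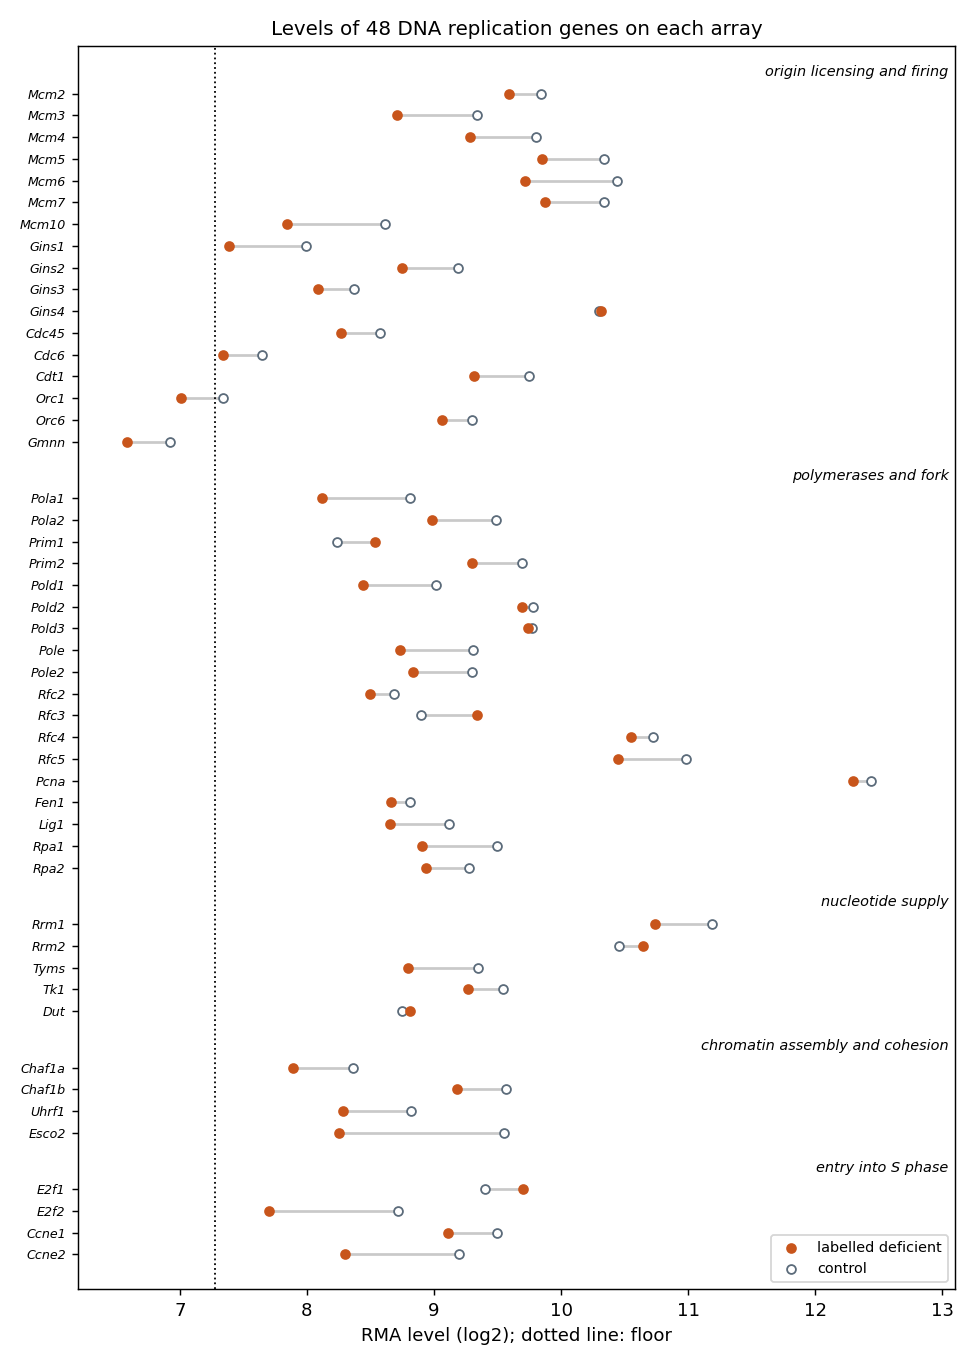
RMA level (log2, horizontal axis) of each of the 48 members on the array labelled deficient (filled) and on the control array (open), ordered by role, with the floor of 7.28 dotted. The filled point lies left of the open one in 42 members, and to its right in Gins4, Prim1, Rfc3, Rrm2, Dut and E2f1.

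The scale of the arrays moved the count more than the direction. When all differences were centred on the median gene, 6 of 47 members were at least 1.5-fold lower, where 6.44% of all genes were, 0 were higher, where 9.4% of all genes were, and the median of the members was -0.35. The 1.5-fold line also cuts through a dense stretch of values: Rpa1 lay just past it at -0.59, and Pold1 and Pole just short of it at -0.58 and -0.57.

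Genes of origin licensing and firing were lower with the exception of Gins4. Of 16 members at or above the floor, 15 had a difference below 0, where 58.9% of all genes did, and the median was -0.43. At least 1.5-fold lower were 4 (25%), where 8.81% of all genes were, and higher were 0, where 7.54% of all genes were. The 6 subunits of the MCM2-7 helicase, the ring that unwinds DNA ahead of the polymerases, were all lower, with differences between -0.72 and -0.25. Mcm6 had a level of 9.71 on the array labelled deficient and 10.44 on the control array, a difference of -0.72. Mcm3 was at 8.71 on the array labelled deficient and 9.34 on the control array, which is -0.63. Both were past 1.5-fold. Mcm4 (9.28 on the array labelled deficient against 9.81 on control, -0.52), Mcm5 (9.85 labelled deficient against 10.34 control, -0.49) and Mcm7 (9.87 labelled deficient against 10.34 control, -0.47) lay close to each other just inside it. Mcm2, at 9.59 on the array labelled deficient and 9.84 on the control array, differed least, by -0.25.

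Factors that join the ring when origins fire differed more among themselves. Mcm10, which is needed to switch the loaded helicase on, was at 7.84 on the array labelled deficient and 8.61 on the control array. Its difference of -0.77 was the lowest among the members in the licensing and firing group. GINS is a ring-shaped complex of 4 subunits that bridges helicase and polymerase epsilon, and its genes differed in size. Gins1 had a level of 7.39 on the array labelled deficient against 7.99 on control (-0.60), Gins2 one of 8.75 labelled deficient against 9.19 control (-0.44), and Gins3 one of 8.09 labelled deficient against 8.37 control (-0.28). Gins4 was level, at 10.32 on the array labelled deficient and 10.30 on the control array (0.02). Cdc45, the third part of the active helicase, was at 8.27 on the array labelled deficient and 8.58 on the control array (-0.31).

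The loading factors were lower by smaller amounts, and none of them passed 1.5-fold. Cdt1, which brings the MCM ring to the origin, was at 9.31 on the array labelled deficient and 9.74 on the control array (-0.43). Its partner in loading, Cdc6, was at 7.34 on the array labelled deficient and 7.65 on the control array (-0.31). Orc1, the subunit of the origin recognition complex whose abundance changes with the cell cycle, was at 7.01 on the array labelled deficient, below the floor, and at 7.34 on the control array (-0.33). Orc6, the smallest subunit of that complex, was at 9.06 on the array labelled deficient and 9.30 on the control array (-0.24). With Orc2, Orc3, Orc4 and Orc5 added, the whole complex spanned only -0.40 to -0.24, with a median of -0.31 over its 6 genes and 0 past 1.5-fold. Geminin, the inhibitor of Cdt1, had a level of 6.58 on the array labelled deficient and 6.92 on the control array, below the floor on both, so its difference of -0.34 rests on the dim range.

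**Figure D2:**
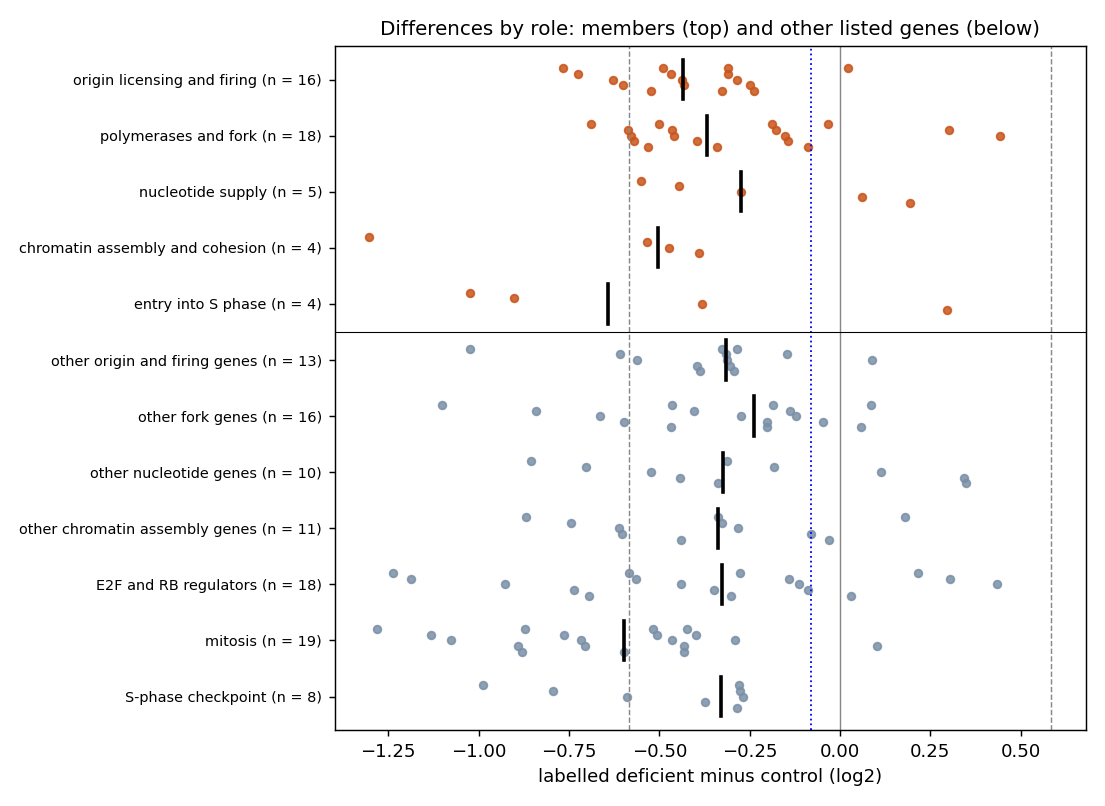
Differences (array labelled deficient minus control, log2) of the members in 5 role groups (orange) and of 7 further lists (blue-grey), each point a gene at or above the floor and each black bar a list's median. Dashed lines mark 1.5-fold and the dotted line the all-gene median of -0.08. The medians of the role groups lie between -0.64 and -0.27, and no point lies right of the upper dashed line.

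Polymerases and fork proteins had a median difference of -0.37 over 18 members, but subunits of the same complex parted. At least 1.5-fold lower were 2 (11.1%), near the 8.81% of all genes, and higher were 0, where 7.54% of all genes were. In the polymerase alpha-primase complex, which lays down the RNA-DNA primers, the catalytic subunit Pola1 was at 8.12 on the array labelled deficient and 8.81 on the control array (-0.69). Its accessory subunit Pola2 was at 8.99 on the array labelled deficient and 9.49 on the control array (-0.50). The primase genes went opposite ways: Prim2, the large subunit, differed by -0.39 (9.30 on the array labelled deficient against 9.70 on control) and Prim1, the catalytic subunit, by 0.30 (8.54 labelled deficient against 8.24 control). In the lagging-strand polymerase delta, the catalytic subunit Pold1 differed by -0.58 (8.44 on the array labelled deficient against 9.02 on control). The smaller subunits Pold2 (-0.09) and Pold3 (-0.03) were near level, and Pold3 was above 0 once the differences were centred (0.05), quantile-normalized (0.02) or freed of their trend on level (0.05). Polymerase epsilon, which copies the leading strand, was lower in both of its listed subunits, Pole (8.74 on the array labelled deficient against 9.31 on control, -0.57) and Pole2 (8.84 labelled deficient against 9.30 control, -0.46).

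The catalytic polymerase subunits Pola1, Pold1 and Pole thus had differences between -0.69 and -0.57, while Prim1, the catalytic subunit of primase, was higher (0.30). Among the clamp and its loader the picture was mixed. Rfc3, a small subunit of replication factor C, which opens the PCNA ring and places it on DNA, had the highest difference of all members, 0.44, with a level of 9.34 on the array labelled deficient and 8.90 on the control array. Rfc5, another small subunit of that loader, was the lowest of the complex at -0.53 (10.45 on the array labelled deficient against 10.98 on control). Rfc2 (-0.19) and Rfc4 (-0.18) lay between them. PCNA itself, the sliding clamp, was at 12.30 on the array labelled deficient and 12.44 on the control array (-0.14). A second row annotated to Pcna read nearly the same, 12.29 on the array labelled deficient and 12.44 on the control array.

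Enzymes that finish the lagging strand and the proteins that cover single strands were lower to differing extents. Lig1, the ligase that seals Okazaki fragments, was at 8.66 on the array labelled deficient and 9.12 on the control array (-0.46). Fen1, the nuclease that trims their flaps, was at 8.66 on the array labelled deficient and 8.81 on the control array (-0.15). Of the single-strand binding complex RPA, Rpa1 was at 8.91 on the array labelled deficient and 9.49 on the control array (-0.59), and Rpa2 was at 8.93 labelled deficient against 9.27 control (-0.34). These enzymes and RPA also serve DNA repair outside S phase.

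Genes of nucleotide supply went both ways, with 3 of 5 lower, 2 higher and 0 past 1.5-fold, and a median of -0.27. Of all genes, 8.81% were past that size downward and 7.54% upward. The subunits of ribonucleotide reductase, which makes deoxyribonucleotides, parted. Rrm1, the large subunit, was at 10.74 on the array labelled deficient and 11.19 on the control array (-0.45). Rrm2, the small subunit whose protein is limited to S phase, was at 10.65 on the array labelled deficient and 10.45 on the control array (0.19). Thymidylate synthase Tyms was lower, at 8.80 on the array labelled deficient and 9.35 on the control array (-0.55), while Dut, the dUTPase that keeps uracil out of DNA, was near level at 0.06. Thymidine kinase Tk1 was read by 2 rows that disagreed in size: the brighter, used here, gave 9.27 on the array labelled deficient and 9.54 on the control array (-0.27), and the other gave 8.87 labelled deficient against 9.61 control (-0.74). With the second row in place of the first, the median of the nucleotide genes was -0.45.

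Chromatin assembly and cohesion genes were lower in all 4 members, with a median of -0.50 and 1 (25%) past 1.5-fold, where 8.81% of all genes were. Esco2, the acetyltransferase that locks cohesin around sister chromatids behind the fork, had the lowest difference of all 48 members. It was at 8.25 on the array labelled deficient and 9.55 on the control array, a difference of -1.30 that puts it at 0.405 of control and at rank 55 from the lowest among the 10657 genes. The large subunits of chromatin assembly factor 1, which deposits histones on new DNA, differed by -0.47 (Chaf1a, 7.89 on the array labelled deficient against 8.37 on control) and -0.39 (Chaf1b, 9.18 labelled deficient against 9.57 control). Uhrf1, which brings the maintenance methylase to newly copied DNA, was at 8.28 on the array labelled deficient and 8.81 on the control array (-0.53).

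Regulators of S phase entry went both ways. E2f2, an activating E2F, was at 7.70 on the array labelled deficient and 8.72 on the control array (-1.02), while E2f1, its close relative, was at 9.70 on the array labelled deficient and 9.40 on the control array (0.30). The E-type cyclins, which drive the kinase that starts S phase, were both lower. Ccne2 differed by -0.90 (8.30 on the array labelled deficient against 9.20 on control) and Ccne1 by -0.38 (9.11 labelled deficient against 9.49 control). The median over these 4 genes was -0.64, and 2 (50%) were at least 1.5-fold lower, where 8.81% of all genes were.

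**Figure D3:**
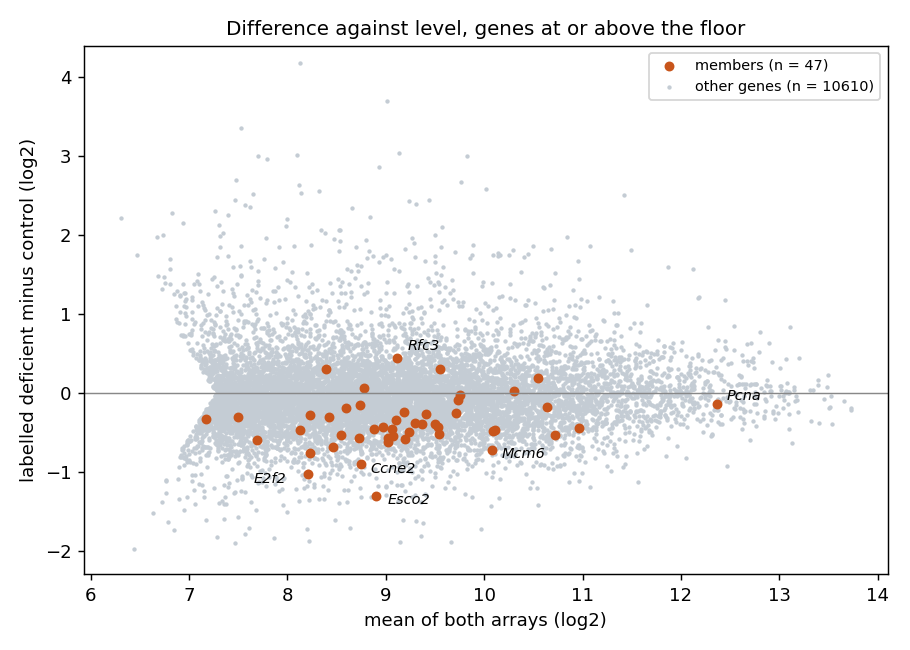
Difference (array labelled deficient minus control, log2, vertical axis) against the mean level of both arrays for 47 members (orange) and the 10610 other genes at or above the floor (grey). Most members lie below 0 at mean levels between 8 and 11, with Esco2 lowest at -1.30 and Rfc3 highest at 0.44.

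Most members lay below other genes of their own brightness. Of the 47 members, 40 lay below the median of the other genes of their own level. Among genes with a mean level from 8 to 9, the 16 members had a median of -0.47 and the 2890 other genes one of -0.08. Between 9 and 10, the 19 members had a median of -0.39 and the 2664 others one of -0.09. Between 10 and 11, 8 members had a median of -0.46 and 1527 others one of -0.07. Across the 47 members, difference and mean level were weakly related (Pearson r 0.22, Spearman rho 0.27), a description over genes read on the same pair of arrays.

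Promoters were read for the letters bound by E2F factors, because many replication genes are known E2F targets. A further reason was that most members, 40 of 47, lay below the median gene. The letters searched were TTTCGCGC and TTTGGCGC on both strands, in the window from 250 bases before to 50 bases after each start, from RefSeq (GRCm38.p6). The table held 45 promoters of 38 members. Mcm4, Gins1, Gins2, Gins4, Prim2, Pole, Rfc2, Esco2, Gmnn and Ccne2 had no promoter there. E2F letters were found in 12 of the 45 (26.7%), against 0.813% of all 32851 promoters of that length and 1.43% of the 10880 promoters of other genes at or above the floor. The 12 members that hold them are shown by a stretch of 30 bases read 5′ to 3′ on the gene's strand, with the E2F letters, on either strand, in capitals, so that the shared core and the direction in which it is read can be compared.
Mcm3 (chr1:20820263-20820292, minus strand): cgggaaaacttgggaagtTTTGGCGCcaag
Mcm5 (chr8:75109347-75109376, plus strand): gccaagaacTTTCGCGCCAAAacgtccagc
Mcm6 (chr1:128359795-128359824, minus strand): gcgtatgctTTTGGCGCGAAAagtgcgtgc
Mcm7 (chr5:138171849-138171878, minus strand): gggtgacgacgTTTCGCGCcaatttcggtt
Orc1 (chr4:108579416-108579445, plus strand): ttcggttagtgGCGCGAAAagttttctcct
Cdt1 (chr8:122568035-122568064, plus strand): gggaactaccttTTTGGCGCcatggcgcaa
Pola1 (chrX:93632275-93632304, minus strand): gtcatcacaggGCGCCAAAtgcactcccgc
Pole2 (chr12:69228162-69228191, minus strand): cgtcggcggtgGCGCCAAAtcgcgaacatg
Lig1 (chr7:13278841-13278870, plus strand): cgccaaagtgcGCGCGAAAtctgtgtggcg
Uhrf1 (chr17:56304117-56304146, plus strand): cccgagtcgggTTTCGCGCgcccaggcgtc
E2f2 (chr4:136172294-136172323, plus strand): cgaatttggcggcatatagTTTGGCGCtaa
Rfc3 (chr5:151651200-151651229, minus strand): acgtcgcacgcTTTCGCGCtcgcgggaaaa
In Mcm5 and Mcm6 the capitals hold a pair of matches that overlap and are read from opposite strands. Orc1, Pola1, Pole2 and Lig1 carry the letters of the opposite strand.

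The Mcm6 promoter held 3 such matches, the highest number among the 38 members with a promoter. Its 250 bases before the start, with the E2F letters in capitals, are shown to place the matches, the first of which begins 110 bases and the last 47 bases before the start.
Mcm6 (chr1:128359706-128359955, minus strand): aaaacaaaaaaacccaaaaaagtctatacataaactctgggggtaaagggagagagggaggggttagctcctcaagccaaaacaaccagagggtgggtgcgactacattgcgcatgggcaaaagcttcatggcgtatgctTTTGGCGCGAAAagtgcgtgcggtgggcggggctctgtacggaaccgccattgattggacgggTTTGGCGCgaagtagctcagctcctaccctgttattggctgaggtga
The 12 members with E2F letters had a median difference of -0.48 and 4 were at least 1.5-fold lower, where 8.81% of all genes were. The 26 members with promoters but without these letters had a median of -0.30, and 2 were at least 1.5-fold lower. The groups overlapped widely: members with the letters ran between -1.02 (E2f2) and 0.44 (Rfc3), and those without between -0.77 and 0.30. Rfc3, the highest member, thus carries the same TTTCGCGC as Mcm7, whose difference was -0.47. Members that had no promoter in the table stood in neither group. They ran between -1.30 (Esco2) and 0.02 (Gins4) and include Ccne2 (-0.90) and Gins1 (-0.60), so the 2 medians leave out some of the lowest members. A match describes letters and not binding. The letters CCAAT, common in promoters of cell cycle genes, stood in 25 of the 45 promoters (55.6%) against 37.4% of all promoters and 36.9% of those of other genes at or above the floor, and TTTGAA, letters of an element known from mitotic genes, in 6 (13.3%), between the 17.9% of all promoters and the 11.8% of those of other genes at or above the floor. In promoters of a list of mitosis genes, TTTGAA stood in 12 of 17 (70.6%) and E2F letters in 1 (5.88%).

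Other genes of replication and its control, on 6 lists that do not overlap the members, were lower too. Their median was -0.32 over the 76 genes that reach the floor. Of these, 20 (26.3%) were past 1.5-fold downward, where 8.81% of all genes were, and 0 upward, where 7.54% of all genes were. Among 13 further origin and firing genes the median was -0.32, with 2 (15.4%) at least 1.5-fold lower. Ticrr, treslin, which helps load Cdc45, was the lowest at 8.00 on the array labelled deficient against 9.02 on control (-1.02), followed by Wdhd1, which ties polymerase alpha to the helicase (-0.61), and Mcm9 (0.09) and Mcmbp (-0.15) were the highest. Among 16 further fork genes the median was -0.24, with 4 (25%) at least 1.5-fold lower. The checkpoint mediator Clspn, claspin, was at 6.93 on the array labelled deficient, below the floor, and 8.03 on control (-1.10). The PCNA unloader Atad5, also below the floor on the array labelled deficient, differed by -0.84. Rnaseh2a (0.09) and the delta subunit Pold4 (0.06) were the highest.

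Further nucleotide genes again went both ways, with a median of -0.32 over 10 genes. At least 1.5-fold lower were 2 (20%), where 8.81% of all genes were, and higher were 0, where 7.54% of all genes were. Rrm2b, a reductase subunit that serves DNA repair and resting cells, was the lowest (-0.85), followed by the nucleotide kinase Cmpk1 (-0.70). On the array labelled deficient Rrm2b was below the floor. Samhd1, which breaks down deoxyribonucleotides in macrophages and other cells outside S phase, was at 12.26 on the array labelled deficient and 11.92 on the control array (0.34), and Nme1, a nucleoside diphosphate kinase, differed by 0.35. Among 11 further chromatin assembly genes the median was -0.34. At least 1.5-fold lower were 4 (36.4%), led by the helicase Hells (-0.87) and the histone gene activator Npat (-0.75). Hat1 (-0.03) and the histone chaperone Rbbp7 (0.18) were the highest, and a second, less bright row of Rbbp7 read 0.44.

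Regulators of E2F and the retinoblastoma family held some of the lowest values. Of 18 such genes that reach the floor, 5 (27.8%) were past 1.5-fold downward, where 8.81% of all genes were, and 0 upward, where 7.54% were. Their median was -0.33. That median was -0.56 over the 11 genes left by a floor at the 75th percentile. The kinase inhibitor Cdkn2c, p18, was at 7.80 on the array labelled deficient and 9.03 on the control array (-1.24), and the repressor E2f8, itself an E2F target, was at 8.41 labelled deficient against 9.59 control (-1.19). The highest were E2f5 (0.31) and the kinase inhibitor Cdkn1b, p27, at 0.43, although a second, dim row of Cdkn1b read -0.49. Of 8 genes of the S-phase checkpoint, 3 (37.5%) were at least 1.5-fold lower, where 8.81% of all genes were. They were the kinases Wee1 (-0.99) and Chek1 (-0.59) and the ATR activator Etaa1 (-0.79). The highest were Atrip (-0.27) and Rad17 (-0.28).

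Mitosis genes were listed for comparison with the S-phase members. Their median was -0.60 over 19 genes, against -0.43 for the replication members. At least 1.5-fold lower were 10 of 19 (52.6%) against 9 of 47 (19.1%), where 8.81% of all genes were. Kif11, a motor of the spindle (-1.28), and Nusap1 (-1.13) were the lowest, and the kinases Aurkb (0.10) and Plk1 (-0.29) the highest. Whether the lists differ was not tested, since each has 1 array per group.

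**Figure D4:**
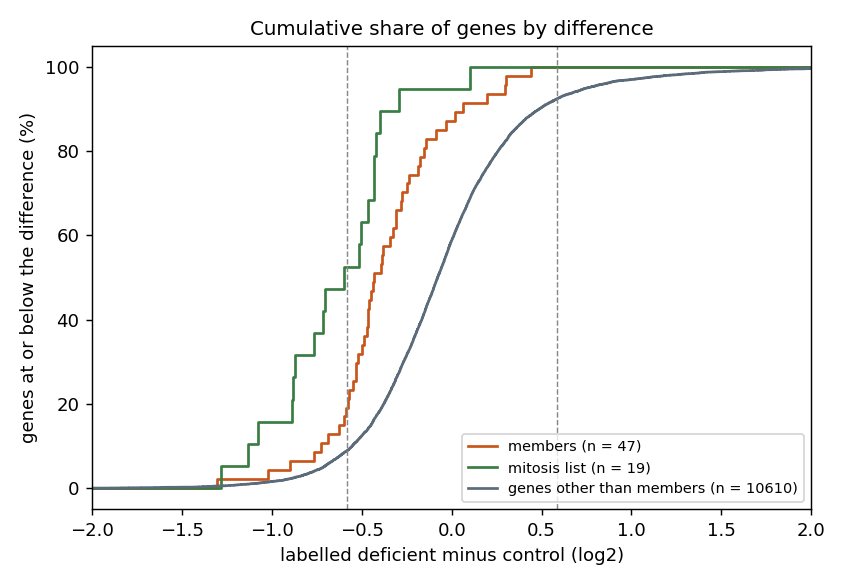
Share of genes (%, vertical axis) at or below each difference (array labelled deficient minus control, log2, horizontal axis) for 47 replication members, 19 mitosis genes and the 10610 genes other than members, with 1.5-fold dashed. The curve of the members lies left of that of the other genes, with medians of -0.43 and -0.08, and the mitosis curve lies further left at -0.60.

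Markers of other cells differed between the same arrays. Macrophage markers were bright on both: their summed level was 15.77 on the array labelled deficient and 15.67 on the control array. Summed levels are log2 of the summed unlogged values, here and below over all members with a row, also those under the floor. Past 1.5-fold upward were 2 of 13, where 7.54% of all genes were, and downward 0, where 8.81% of all genes were. Differences ran from Fcgr1 and C1qb (both 0.78) down to Lyz2 (-0.38) and Emilin2 (-0.54). Stromal markers summed to 14.64 on the array labelled deficient against 13.81 on control, with 10 of 13 at least 1.5-fold higher, where 7.54% of all genes were. Their differences ran from Cxcl12 (2.87) and Pdgfra (2.12) down to Fn1 (0.22) and Thy1 (0.18). Pdgfra and Thy1 reached the floor only on the array labelled deficient. Neutrophil granule markers summed to 14.16 on the array labelled deficient against 12.98 on control, with 11 of 13 at least 1.5-fold higher, beside the same 7.54%. Their differences ran from Retnlg (2.57) and Mpo (2.22) down to Ly6g (0.35) and Camp (-0.43). Of these markers, Prtn3, Ctsg, Retnlg and Ly6g reached the floor only on the array labelled deficient. By sum, the stromal and neutrophil lists were higher on the array where the replication genes were lower.

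Dividing precursors were looked for as well. Blood progenitor markers summed to 11.40 on the array labelled deficient and 11.42 on the control array, a sum in which Cd48 was by far the brightest row. Of the 7 at or above the floor the median was 0.35, and the lowest were Cd48 (-0.30) and Sox4 (-0.11). At least 1.5-fold higher were 2, Hoxa9 (0.99) and Myb (0.84), where 7.54% of all genes were, and 0 were past that size downward. Hoxa9, Myb, Meis1 and Gata2 reached the floor only on the array labelled deficient, where they were higher. Cd34 (-0.09), Sox4 and Cd48 reached it on both arrays and were below 0, so the median rests on genes below the floor on control. The defining progenitor genes Kit (6.73 on the array labelled deficient against 6.78 on control) and Flt3 (6.42 labelled deficient against 6.66 control) were below the floor on both arrays. Of the erythroid markers, 2 of 7 reached the floor, Tfrc (-0.63), which dividing cells of any kind use to take up iron, and Ermap (-0.90). Both were at least 1.5-fold lower, where 8.81% of all genes were, and Ermap reached the floor on the control array only. The other 5 were below the floor on both arrays. Gata1 was level there, at 6.42 on the array labelled deficient and 6.41 on control, and Alas2 differed by 0.09. Car1 (-1.63), Klf1 (-0.77) and Epor (-0.22) were lower. Erythroid markers summed to 10.34 on the array labelled deficient against 10.94 on control, a sum in which Tfrc was by far the brightest row. Dendritic markers at the floor were Itgax (1.53), Cd209a (0.94) and Ccr7 (-0.63), and the lymphoid marker there was Nkg7 (1.09). Cd209a and Nkg7 reached the floor on the array labelled deficient only, and Ccr7 on the control array only. The part of these cells in the values of the replication genes was not tested, and in bulk RNA fewer dividing cells and less RNA per dividing cell cannot be told apart.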

How the data were processed

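The deposited table gave 1 log2 value per row and array; the authors made these log2 values with RMA, per the submitters' processing notes, which name no version or settings. The log2 scale was read from the values, and the columns are written with unequal numbers of decimals. Whether both came from 1 RMA run, and whether a column averages several hybridisations, is not known; a column is called an array because the labels list 1 sample for it. RMA values carry no read depth or detection call, and the number of arrays limits the precision.

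Of 25917 rows, 21624 carried 1 gene symbol, 1568 several and 2725 none in GEO's platform annotation. An update of symbols through Entrez IDs (GRCm38.p6, 21537 rows matched) changed 0. Differences are the array labelled deficient minus control. Genes whose higher value reached the median of all values, 7.28, were counted at 1.5-fold, without any test. The members and lists were chosen with earlier results of these data known. The text names every member, Ctnnb1, and the highest 2 and lowest 2 genes of each further list, with complex partners. Chek1, Kit, Flt3, Gata1, Alas2, Car1, Klf1, Epor, Cd34, Meis1, Gata2, Prtn3 and Ctsg, named beyond that rule, were chosen after their values were seen. Promoters came from RefSeq (GRCm38.p6), and a planned search of protein motifs was not run. Alternatives were other floors, centring, quantile normalization, a loess curve (span 0.4) and other rows per gene, in Python 3.11.15 with pandas 2.3.3 and statsmodels 0.14.6, after tests on simulated data.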

Additional observations from a re-analysis of the deposited data

How the results depend on the processing

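The median difference of the members stayed between -0.44 and -0.35 under 9 alternatives and was -0.38 as a mean. The alternatives were no floor, other floors, centring, quantile normalization, loess, other rows per gene and rows with several symbols. Under any of them 0 members were at least 1.5-fold higher, where between 4.98% and 9.41% of all genes were. The count at least 1.5-fold lower was 9 in the main setting, where 8.81% of all genes were. It was 6 under centring (6.44% of all genes), quantile normalization (6.93%) and loess (6.29%), and 10 with the dimmer row of a gene (9.05%). With a floor at the 75th percentile, where fewer genes were left, it was 5 of 32 (8.83% of all genes). At a 2-fold threshold it was 2 (1.59% of all genes). The floor at the 75th percentile gave medians of -0.85 for chromatin assembly (2 genes left) and -0.38 for S phase entry (3 left). The nucleotide median was -0.45 with the mean of all rows or the dimmer row of a gene, through Tk1. A median was taken as moved past 0.1, since no replicate spread exists. Of the further lists, the median of E2F and RB regulators was -0.56 with that higher floor and -0.44 with the dimmer row of a gene, and that of other chromatin assembly genes -0.44 with that floor. Over the 99 genes covered by the naming rule and 5 settings, 28 gene-by-setting values moved by more than 0.1 and 467 did not, and among genes past 1.5-fold 0 turned sign. Many of the 467 could not move. Centring shifts every gene by the same amount, which is below 0.1, and another choice of row leaves a gene with 1 row unchanged. These counts therefore say little about stability. No paired analysis was possible because each group had 1 array.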
